A study of Arabidopsis thaliana with 6 samples.

Results

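The loci described here are the 769 of chromosome 4 of Arabidopsis thaliana whose names run from AT4G03600 to AT4G08350, out of 29670 loci measured. Membership follows from the locus name and uses no measured value. The working name of this range is the chromosome 4 knob and pericentromere; the files mark neither. RNA of epiRIL12 (3 arrays) was compared with RNA of Col, the reference accession (3 arrays), in untreated plants of 14 days grown in long days. EpiRIL12 is an epigenetic recombinant inbred line, of the kind bred from a met1 mutant and a Col parent. The mutant lacks the enzyme that maintains CG methylation, and lines of this kind inherit some segments from each parent. EpiRIL12 is 1 inbred line, and the labels do not give the parent of origin of any segment of chromosome 4. The labels call the material whole seedlings in one field and rosette leaves in another. They do not state that the 3 arrays of each genotype hold separately grown plants. The p-values therefore cover the spread among these samples, which may be technical.

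Heterochromatin of Arabidopsis is concentrated around the centromeres and in a few knobs. It is rich in transposons and their decayed remains, which are normally kept silent by methylation of CG and other sites together with histone H3 lysine 9 methylation. The knob of chromosome 4 is known to have arisen in Col by an inversion that moved repeats away from the pericentromere. The RefSeq gene table of assembly TAIR10.1 has no class for transposon genes and places such loci with the pseudogenes. No nucleotide or protein sequence of these loci was used here.

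Values were the authors' log2 expression per locus. Array medians over all loci lay between 6.80 and 6.84, and Pearson's r across loci, which are not independent replicates, was 0.988 to 0.990 between arrays of 1 genotype and 0.979 to 0.982 between genotypes. Both arrays numbered 3 had a wider spread over loci (SD 2.37 in Col and 2.40 in epiRIL12) than the other 4 (2.32). All 5 leaf markers, among them the Rubisco small subunit gene RBCS1A and the Rubisco activase gene RCA, had levels between 13.9 and 15.47 on every array, and the 6 root markers, among them the Casparian strip gene CASP1 and the root hair genes COBL9 and EXPA7, lay between 5.04 and 7.66. None of the 11 was called, and no background level was given against which to read the root markers. A difference in RNA level in such bulk samples can come from more RNA per cell or from more cells of a type, and these cannot be told apart.

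The annotation showed a repeat-rich range with genes inside it. Of the 769 loci, 563 (73.2%) were in the 2 pseudogene classes, against 14.0% of all loci, 198 were protein-coding, 6 were of other classes and 2 were not matched. The pseudogene classes did not fill the range evenly. They made up 56 of the 71 loci from AT4G03600 to AT4G03999, 63 of 140 from AT4G04000 to AT4G04999 and 42 of 100 from AT4G05000 to AT4G05999. They made up 199 of 213 from AT4G06000 to AT4G06999 and 203 of 245 from AT4G07000 to AT4G08350. An interval with a lower share of pseudogene-class loci thus lies between both repeat-rich ends. Its shares (45% and 42%) were still above the 14.0% of all loci. At the lower edge, AT4G03600 inside the range had a log2 difference of 0.08 (SE 0.21) and AT4G03590 outside it -0.14 (SE 0.35). At the upper edge, GTA2 (AT4G08350) inside had -0.0027 (SE 0.10) and AT4G08360 outside -0.75 (SE 0.28). None of these 4 protein-coding loci passed the test.

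Pseudogene-class loci were the ones called, and each call was a rise in epiRIL12. Of the 769 loci, 32 rose (4.16%, against 0.89% of all 29670 loci) and 0 fell (0.0843% of all loci fell), by limma with a Benjamini-Hochberg adjusted p under 0.05 over all loci. All 32 were pseudogene-class loci, which makes 5.68% of the 563, close to the 5.72% of all 4145 pseudogene-class loci. The share is thus near the genome's share for this class and is no result about the region. At an unadjusted limma p under 0.05, 101 of the 769 loci were above 0 (13.1%, against 3.32% of all loci) and 30 below (3.90%, against 3.72%). Of the 563 pseudogene-class loci, 97 were above (17.2%, against 14% of all such loci) and 17 below (3.02%, against 3.62%). The 32 rises ran from 0.70 to 4.80 on the log2 scale, with a median of 2.46 (5.49-fold). A difference of at least 2-fold was seen in 28 of them, and 10 had a log2 difference of at least 3. Without epiRIL12 replicate 3 there were 20 rises (197 over all loci), without Col replicate 1 21 (216) and without Col replicate 3 21 (206). With both arrays numbered 3 left out there were 14 (141 over all loci). The authors' deposited table, with its p-values adjusted in the same way, gave 9 (123 over all loci). Of the 32, 8 were among these 9. With all arrays there were 264 over all loci.

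In all 32, each of the 3 epiRIL12 values lay above each of the 3 Col values. Over the 563 pseudogene-class loci the groups were apart in this direction at 105 (18.7%, against 14.8% of all pseudogene-class loci and 5.19% of all loci), and in the opposite direction at 27 (4.80%, against 5.6% and 6.89%). Of the 531 pseudogene-class loci that were not called, 296 had differences above 0 and 235 below, with a median of 0.03. The median difference was 0.04 over the 563 loci and 0.0081 over all pseudogene-class loci, against -0.02 over all loci. On the single arrays, the median level of the 32 rises was 7.71, 7.77 and 7.88 in epiRIL12, against 5.41, 5.43 and 5.33 in Col. The median of all 563 pseudogene-class loci was 4.47, 4.46 and 4.44 in epiRIL12, against 4.43, 4.42 and 4.30 in Col. The median of these repeats thus lay, on every array, under the lower quartile of all loci, which was 4.71 to 4.90 across arrays.

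**Figure D1:**
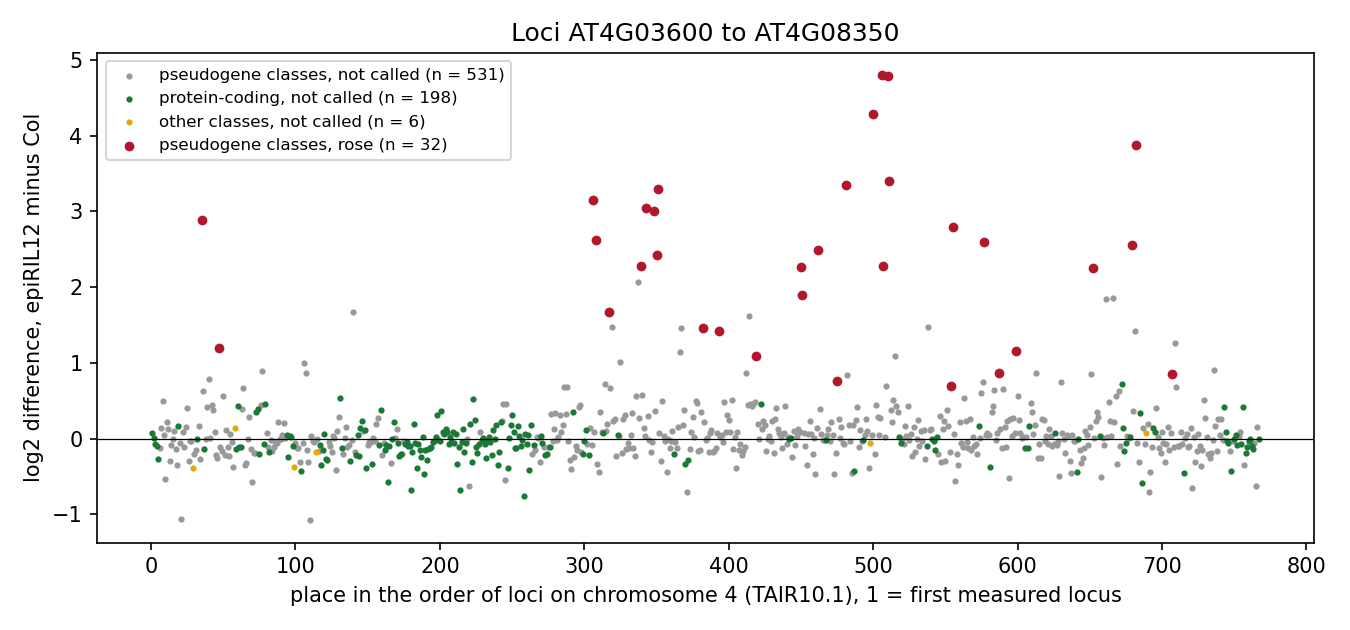
Log2 difference (epiRIL12 minus Col) of each measured locus from AT4G03600 to AT4G08350, placed along the x axis by its order on chromosome 4 in TAIR10.1 (767 matched loci). Red points are the 32 pseudogene-class loci that rose, grey the 531 that were not called, green the 198 protein-coding loci and yellow the 6 loci of other classes. The red points lie mostly in the higher-numbered part, with 2 from AT4G03600 to AT4G03999. All green points lie between -0.76 and 0.73.

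AT4G06718 and AT4G06728 had the highest differences, 4.80 and 4.79, and their order was not stable: AT4G06728 was the higher under quantile normalization and without Col replicate 1, Col replicate 2 or epiRIL12 replicate 1. The level of AT4G06718 was 11.12, 11.09 and 11.21 on the epiRIL12 arrays, against 6.14, 6.54 and 6.34 on the Col arrays, a 27.8-fold difference (log2 4.80, SE 0.12, limma adjusted p = 1.5e-05). The values of each genotype lay close together and far from those of the other. AT4G06698 had 10.66, 10.46 and 10.78 in epiRIL12, against 6.40, 6.50 and 6.15 in Col (log2 4.29, SE 0.13, adjusted p = 2.8e-05). AT4G08016 had 8.63, 8.83 and 8.60 in epiRIL12, against 4.81, 4.90 and 4.71 in Col (log2 3.88, SE 0.10, adjusted p = 1.5e-05). In both, the gap between the genotypes was many times the spread among arrays. AT4G06664 had 8.30, 8.53 and 8.60 in epiRIL12, against 5.19, 5.01 and 5.17 in Col (log2 3.35, SE 0.11, adjusted p = 3.8e-05). AT4G07458 had 8.71, 8.89 and 8.85 in epiRIL12, against 6.14, 5.83 and 6.10 in Col (log2 2.79, SE 0.12, adjusted p = 7.4e-05). These 5 loci, with AT4G06730 and AT4G06517, are the 7 that kept their call in every alternative in which they were tested.

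Other large rises had noisier arrays. AT4G06728 had 8.80, 9.40 and 9.82 in epiRIL12, against 5.41, 4.99 and 3.26 in Col (log2 4.79, SE 0.57, adjusted p = 0.0124), with a Col mean below the lower quartile of all loci. Its Col replicate 3 was the lowest value, and Col varied more (SD 1.14) than epiRIL12 (SD 0.51). Its call was lost without epiRIL12 replicate 2 or 3. AT4G06730 had 9.19, 9.35 and 8.66 in epiRIL12, against 5.80, 5.67 and 5.54 in Col (log2 3.40, SE 0.19, adjusted p = 0.000265). AT4G06615 had 9.84, 9.11 and 9.71 in epiRIL12, against 6.39, 5.63 and 6.75 in Col (log2 3.30, SE 0.32, adjusted p = 0.00482). Col ran from 5.63 to 6.75 at AT4G06615, and the genotypes overlapped at neither locus. AT4G05636 had 10.46, 9.39 and 9.95 in epiRIL12, against 7.16, 6.58 and 6.58 in Col (log2 3.16, SE 0.30). AT4G06511 had 8.61, 8.24 and 8.78 in epiRIL12, against 5.51, 5.78 and 5.18 in Col (log2 3.05, SE 0.20). AT4G06586 had 7.07, 8.50 and 7.996 in epiRIL12, against 4.29, 5.12 and 5.12 in Col (log2 3.01, SE 0.40, adjusted p = 0.0217). Its call was lost when Col replicate 1, 2 or 3 or epiRIL12 replicate 2 or 3 was left out. AT4G03825 had 8.47, 8.26 and 8.33 in epiRIL12, against 5.41, 4.97 and 6.03 in Col (log2 2.88, SE 0.26, adjusted p = 0.0029). Of the 12 largest rises, 10 kept their call with any single array left out, and AT4G06728 and AT4G06586 did not.

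**Figure D2:**
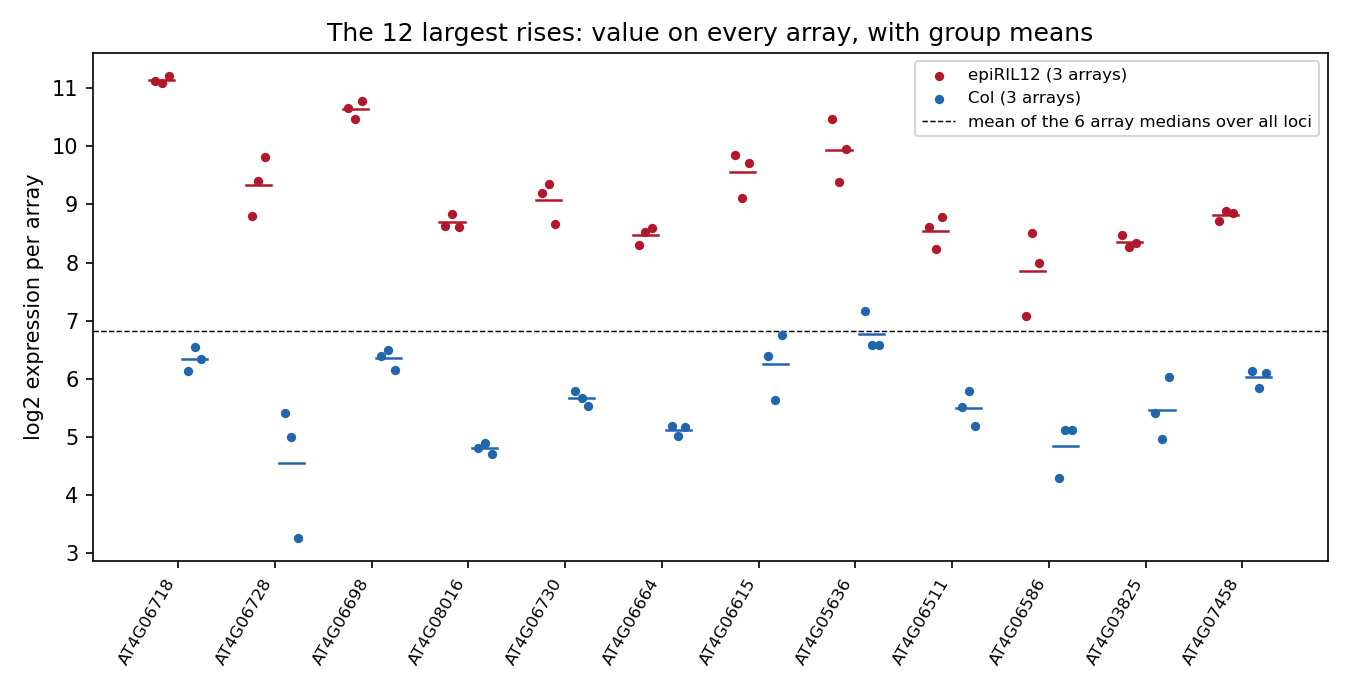
Log2 expression on each of the 6 arrays for the 12 largest rises, epiRIL12 in red left of Col in blue, with short lines at the group means; the dashed line is the mean of the 6 array medians over all loci. In every locus the 3 red points lie above the 3 blue points, and the blue points of AT4G06728 spread most, from 3.26 to 5.41.

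The remaining 20 rises were smaller or less certain. Those above 2 on the log2 scale were AT4G05640 (2.63, adjusted p = 0.00133), AT4G07519 (2.60, 0.0486), AT4G08000 (2.56, 0.0259), AT4G06624 (2.49, 0.0373), AT4G06517 (2.42, 0.00278), AT4G06720 (2.28, 0.000742), AT4G06507 (2.28, 0.0156), AT4G06606 (2.27, 0.000237) and AT4G07896 (2.25, 0.0135). Those between 1 and 2 were AT4G06607 (1.89, adjusted p = 0.0103), AT4G06484 (1.67, 0.0156), AT4G06621 (1.46, 0.00844), AT4G06555 (1.42, 0.0222), AT4G03880 (1.19, 0.00685), AT4G07630 (1.16, 0.0089) and AT4G06580 (1.09, 0.00585). Under 2-fold were AT4G07560 (0.87, adjusted p = 0.0268), AT4G08080 (0.86, 0.00681), AT4G06650 (0.76, 0.0287) and AT4G07456 (0.70, 0.0331). Over all 32, 18 kept their call with any single array left out, AT4G05640, AT4G06517, AT4G06720, AT4G06606, AT4G06621, AT4G03880, AT4G06580 and AT4G08080 among them. Among the small rises, arrays of 1 genotype lay close together at AT4G08080 (7.53, 7.39 and 7.42 in epiRIL12, against 6.59, 6.65 and 6.52 in Col).

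Several large differences missed the threshold. There were 16 loci with a log2 difference of at least 1 in size and no call, 14 of them above 0 and 2 below. AT4G06505 had 8.21, 8.36 and 8.14 in epiRIL12, against 6.38, 5.24 and 6.90 in Col (log2 2.06, SE 0.39, limma adjusted p = 0.116). AT4G07939 had 6.95, 6.65 and 8.18 in epiRIL12, against 6.07, 5.12 and 5.02 in Col (log2 1.86, SE 0.45, adjusted p = 0.273). The genotypes did not overlap at either, and the wider spread was in Col at AT4G06505 (SD 0.11 in epiRIL12 and 0.85 in Col) and in epiRIL12 at AT4G07939 (SD 0.81 in epiRIL12 and 0.58 in Col). AT4G07946 stood at 1.84 (SE 0.37, adjusted p = 0.145), AT4G04430 at 1.67 (SE 0.31, adjusted p = 0.105) and AT4G06575 at 1.62 (SE 0.38, adjusted p = 0.242). The 2 below 0 are named because of their values. AT4G04293 had 6.45, 6.34 and 7.30 in epiRIL12, against 7.83, 7.60 and 7.90 in Col (log2 -1.08, SE 0.26, adjusted p = 0.260). AT4G03750 had 4.68, 4.74 and 5.18 in epiRIL12, against 6.39, 6.38 and 5.0004 in Col (log2 -1.06, SE 0.39, adjusted p = 0.621). In each, 1 array stood away from the others of its genotype. AT4G04293 passed without epiRIL12 replicate 3 (log2 -1.38, adjusted p = 0.0137) and AT4G03750 without Col replicate 3 (log2 -1.52, adjusted p = 0.0318).

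Rises were unevenly placed along the region. Among pseudogene-class loci, 2 of 56 rose from AT4G03600 to AT4G03999 (3.57%), 0 of 63 from AT4G04000 to AT4G04999 and 2 of 42 from AT4G05000 to AT4G05999 (4.76%). From AT4G06000 to AT4G06999 19 of 199 rose (9.55%), and from AT4G07000 to AT4G08350 9 of 203 (4.43%). Loci up to AT4G04999 thus held 2 rises among 119 pseudogene-class loci (1.68%), AT4G03825 and AT4G03880. Numbers AT4G05000 to AT4G08350 held 30 among 444 (6.76%). The difference between these stretches was not tested. The boundary was set with the calls known. Of the same loci, called ones included, the 3 epiRIL12 values lay above the 3 Col values at 13 of the 119 (10.9%) and at 92 of the 444 (20.7%), and the median difference was -0.03 and 0.06; these counts hold the calls again and are no separate support.

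Where a locus stood on the array scale in Col moved with these shares. The Col mean lay below the lower quartile of all Col means (4.82) at 374 of the 563 loci, of which 7 rose (1.87%), between the quartile and the median of 6.79 at 180, of which 24 rose (13.3%), and above it at 9, of which AT4G05640 rose. Over all pseudogene-class loci of the genome the shares were 3.25%, 11.8% and 8.40%. Up to AT4G04999 the pseudogene-class loci had a median level of 4.17 in epiRIL12 and 4.21 in Col, and from AT4G05000 of 4.55 in epiRIL12 and 4.42 in Col. The part of array level in the uneven placement was not tested.

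**Figure D3:**
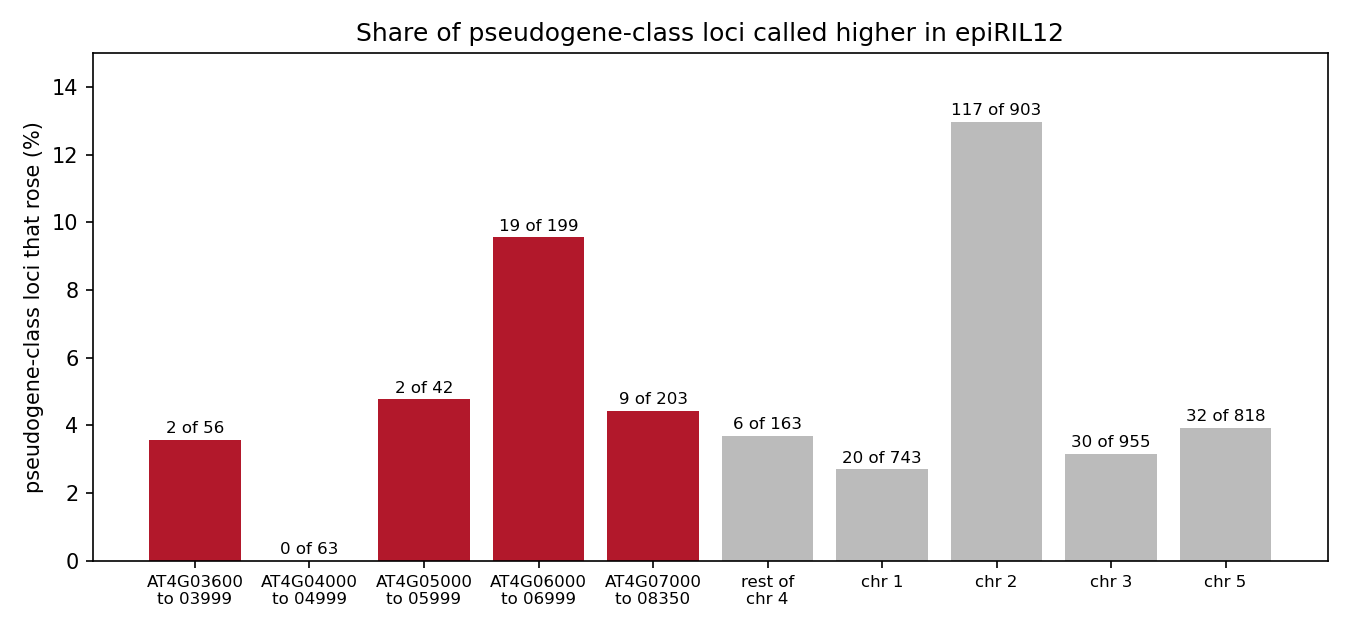
Percentage of pseudogene-class loci called higher in epiRIL12 (limma, adjusted p under 0.05), with the count above each bar, for the 5 stretches of the region (red, by locus number) and for the remainder of chromosome 4 and the other chromosomes (grey). The stretch AT4G06000 to AT4G06999 stands at 9.55% and the stretch AT4G04000 to AT4G04999 at 0, and chromosome 2 at 13.0%.

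Elsewhere in the genome the pseudogene classes gave 6 rises among 163 loci on the remainder of chromosome 4 (3.68%), 20 of 743 on chromosome 1 (2.69%), 117 of 903 on chromosome 2 (13.0%), 30 of 955 on chromosome 3 (3.14%) and 32 of 818 on chromosome 5 (3.91%). Outside the region and chromosome 2 together the share was 88 of 2679 (3.28%), so the region's 5.68% lay between that and chromosome 2. The groups were apart upward at 18.7% of the region's pseudogene-class loci, at 7.36% on the remainder of chromosome 4, and on chromosomes 1, 2, 3 and 5 at 10.4%, 24.5%, 9.42% and 13.1%. Downward the shares were 4.80% in the region, 11.7% on the remainder of chromosome 4, and 4.71%, 4.98%, 7.12% and 4.65% on chromosomes 1, 2, 3 and 5. These are descriptions, since copies of 1 repeat are not independent.

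In the order of TAIR10.1, the longest stretch without a called locus ran from AT4G03885 to AT4G05634. It held 258 measured loci, 119 of them pseudogene-class and 136 protein-coding. Its pseudogene-class loci had a median difference of -0.03, and the groups were apart upward at 14 of these 119 and downward at 6. The stretch was picked for holding no call. Its loci are therefore set beside the region's 531 uncalled pseudogene-class loci, which had a median of 0.03 and shares of 13.7% and 5.08%. Whether the stretch differed from these was not tested. The largest difference in the stretch was that of AT4G04430 (1.67), which was not called.

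Some rises lay near one another. With at most 3 measured loci between called neighbours, 17 of the 32 fell into 7 groups and 15 did not, and 5 pairs were direct neighbours. The stretch from AT4G06000 to AT4G06999 alone held 19 rises among 213 loci. Whether rises lay closer together than such a density gives was not tested. The largest group was AT4G06718, AT4G06720, AT4G06728 and AT4G06730, with log2 differences of 4.80, 2.28, 4.79 and 3.40. The 2 loci between them did not pass: AT4G06722 stood at 5.004 in epiRIL12 and 4.98 in Col (log2 0.03, SE 0.15), and AT4G06726 at 4.98 in epiRIL12 and 4.29 in Col (log2 0.69, SE 0.18, adjusted p = 0.344). On the outer sides, AT4G06714 had 0.28 (SE 0.25) and AT4G06732 0.39 (SE 0.20). Within the group, the loci that did not pass thus lay side by side between AT4G06720 and AT4G06728.

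A second group lay where locus numbers and chromosome order differ. In TAIR10.1, AT4G06586, AT4G06516, AT4G06517 and AT4G06615 follow one another, and they had log2 differences of 3.01, 0.37, 2.42 and 3.30. AT4G06516, at 4.57 in epiRIL12 and 4.21 in Col, was the one of these that did not pass (SE 0.15, adjusted p = 0.706). The other groups were AT4G05636 with AT4G05640, AT4G06507 with AT4G06511, AT4G06606 with AT4G06607, AT4G07456 with AT4G07458, and AT4G08000 with AT4G08016. Between the members of AT4G08000 and AT4G08016, AT4G08013 had a difference of 1.42 that did not pass (SE 0.42, adjusted p = 0.451). By contrast AT4G06698 stood alone: in chromosome order its neighbours AT4G06699 (0.05, SE 0.10) and AT4G06700 (-0.20, SE 0.14) did not pass, nor did AT4G06697 (-0.38, SE 0.11, adjusted p = 0.401), next by number. AT4G06664 likewise lay between AT4G06660 (-0.06, SE 0.17) and AT4G06666 (0.84, SE 0.42, adjusted p = 0.808). Over the 9 uncalled loci inside the 7 groups, differences ran from 0.03 to 1.42, all above 0. Of the region's 531 uncalled pseudogene-class loci, 55.7% were above 0. From AT4G06000 to AT4G06999 it was 68.8% of all pseudogene-class loci, called ones included. The 9 were picked by their place between calls, and whether they differ from these shares was not tested. No rise overlapped another locus in the TAIR10.1 table, although probe positions were not used here.

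**Figure D4:**
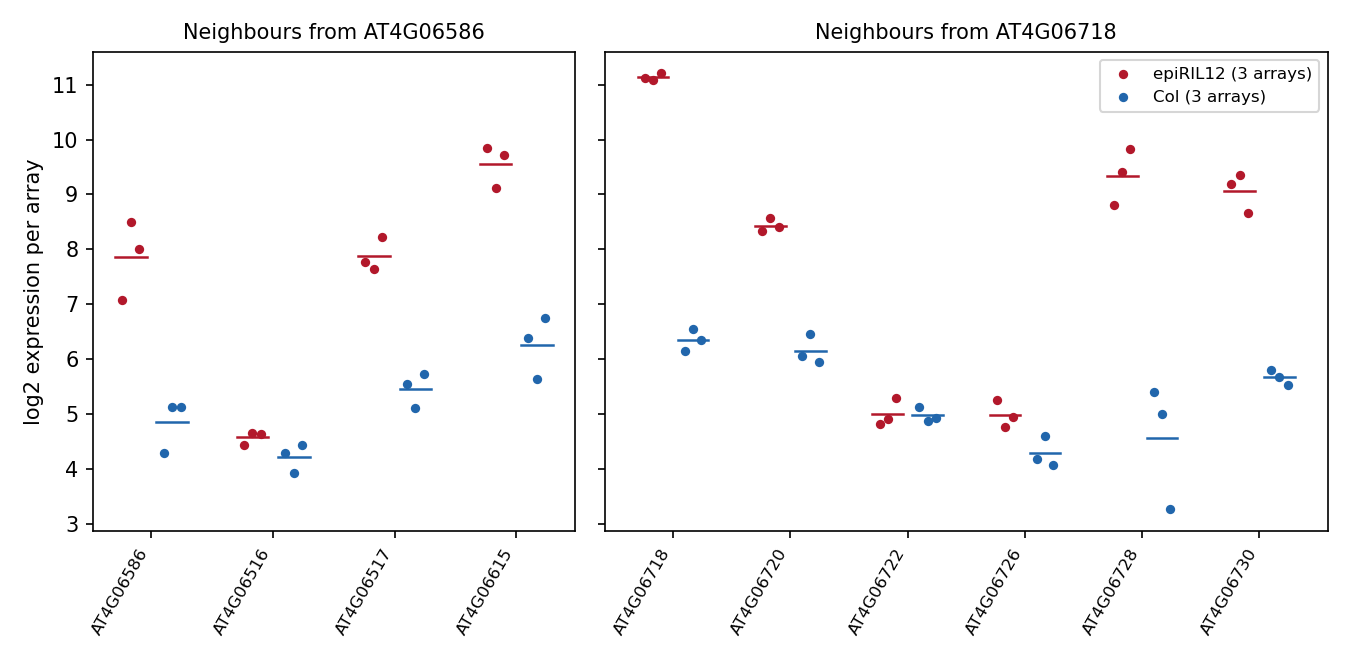
Log2 expression on each of the 6 arrays for loci that follow one another on chromosome 4 in TAIR10.1, epiRIL12 in red left of Col in blue, with short lines at the group means. From AT4G06586, 3 of the 4 loci are apart by 2.42 to 3.30, and from AT4G06718, 4 of the 6 by 2.28 to 4.80, with AT4G06516, AT4G06722 and AT4G06726 low in both genotypes.

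None of the 198 protein-coding genes of the region was called in either direction. Of all 25178 protein-coding loci 0.107% rose and 0.0715% fell, so a count of 0 among 198 is near the background and shows nothing particular to these genes. At an unadjusted p under 0.05, 4 were above 0 (1.61% of all protein-coding loci) and 12 below (3.71%). The 3 epiRIL12 values lay above the 3 Col values at 6 of the 198 (3.67% of all protein-coding loci) and below them at 20 (7.11% of all). The lowest adjusted p was 0.106, that of ATG8B (AT4G04620), one of the ATG8 proteins that build autophagosomes. It had 7.28, 7.36 and 7.41 in epiRIL12, against 7.76, 8.03 and 7.99 in Col (log2 -0.58, SE 0.11), with no overlap between the genotypes. ATG8B is named because of its values. The difference was under 0.5 in size at 190 of the 198 and reached 1 at none. The median difference was -0.05, against -0.03 over all protein-coding loci. The 18 protein-coding loci that lie nearest to the rises had differences from -0.46 (AT4G08097) to 0.46 (AT4G06583), with a median of -0.01, and none was called.

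None of the 5 protein-coding genes with the highest array values was called. PSBQ-2 (AT4G05180), a subunit of the oxygen-evolving complex of photosystem II, had 14.63, 14.48 and 14.62 in epiRIL12, against 14.52, 14.62 and 14.69 in Col (log2 -0.04, SE 0.10). ATPC1 (AT4G04640), the gamma subunit of the chloroplast ATP synthase, had 13.84, 13.71 and 13.89 in epiRIL12, against 13.74, 13.80 and 13.91 in Col (log2 -0.0039, SE 0.10). The genotypes overlapped in both. UBQ10 (AT4G05320), a polyubiquitin gene often used as a reference transcript, had a difference of 0.01 (SE 0.10), UBQ11 (AT4G05050) of 0.13 (SE 0.14) and the plastoglobule protein gene FIB (AT4G04020) of 0.36 (SE 0.18, limma adjusted p = 0.804).

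Gene families and functional groups of the region were followed as 9 lists with 60 entries, of which 58 were measured. AT4G05500, in the F-box and leucine-rich repeat cluster, is a pseudogene-class locus. None of the 58 was called, where 0.89% of all loci rose and 0.0843% fell. An unadjusted limma p under 0.05 was reached by 4 of the 58, all below 0, where 3.72% of all loci were so. Differences were above 0 at 15 and below at 43, where 43.4% of all loci were above 0, and the median was -0.07, against -0.02 over all loci. The cysteine-rich receptor-like kinases, membrane kinases of stress signalling, had 2 of 6 above 0. CRK40 stood at -0.09 (SE 0.16), CRK36 at 0.23 (SE 0.24), CRK37 at 0.12 (SE 0.13) and CRK38 at -0.39 (SE 0.12, limma adjusted p = 0.518). The calcium-dependent protein kinases were all 5 below 0 by little: CPK21, which acts with CPK23 on guard cell anion channels, had -0.09 (SE 0.11), CPK23 -0.17 (SE 0.10), CPK27 -0.05 (SE 0.10) and CPK31 -0.07 (SE 0.11). Of the methionine sulfoxide reductases, which repair oxidised methionine, MSRB5 had -0.15 (SE 0.26), MSRB6 -0.28 (SE 0.20), MSRB3 0.02 (SE 0.19) and MSRB4 -0.47 (SE 0.14, adjusted p = 0.463).

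No member of the other lists was called either. All 4 nucleoside transporter genes had differences between -0.19 (ENT3) and -0.01 (AT4G05140), with ENT6 at -0.11 and ENT4 at -0.07. The 8 ubiquitin and ubiquitin-like genes had a median of 0.0030, with AT4G05310 at -0.39 (SE 0.18) and AT4G05230 at -0.0046 (SE 0.14). Of 7 genes of chloroplast proteins, 6 were below 0, and the sulfate assimilation gene APR1 stood at -0.15 (SE 0.13). RbcX1, a Rubisco assembly chaperone, stood at -0.35 (SE 0.13, limma adjusted p = 0.646), and with CRK38, MSRB4 and AT4G05470 it makes the 4 with an unadjusted p under 0.05. The 10 transcription regulators ran from -0.15 to 0.42. The homeobox gene KNAT1, which acts in the shoot meristem, had the upper value (6.54, 5.84 and 6.46 in epiRIL12, against 5.90, 6.14 and 5.54 in Col, SE 0.23), with the genotypes overlapping, and is named because of it. The epidermal regulator PDF2 stood at 0.02 (SE 0.11), the transcription elongation factor GTA2 at -0.0027 (SE 0.10), the polyadenylation factor PCFS4 at -0.03 (SE 0.10) and the Mediator subunit SFR6 at -0.03 (SE 0.08). Among 9 housekeeping genes, DDB1A, a subunit of CUL4 ubiquitin ligases, had -0.02 (SE 0.09), the glutaredoxin GRXS17 0.13 (SE 0.10), the peroxisomal IBR1 -0.22 (SE 0.18) and the membrane fusion ATPase NSF -0.01 (SE 0.08). Of the 5 measured loci of the F-box and leucine-rich repeat cluster, AT4G05470 had the lowest limma adjusted p of all 58 (-0.41, SE 0.09, 0.189). AT4G05460 had 0.05 (SE 0.10), AT4G05490 0.18 (SE 0.10) and AT4G05497 -0.08 (SE 0.22).

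Genes that set, read or remove silencing marks were listed from the whole genome. None of the 19 was called (0.89% of all loci rose and 0.0843% fell), and their median difference was -0.00087. An unadjusted limma p under 0.05 was reached by 2 of the 19, both below 0, where 3.72% of all loci were so. One was NRPE1, a subunit of the Pol V enzyme of RNA-directed DNA methylation (-0.86, SE 0.16, limma adjusted p = 0.0956). The other was the DNA demethylase gene ROS1 (-0.37, SE 0.15, adjusted p = 0.706). MET1 had 8.96, 8.93 and 9.09 in epiRIL12, against 9.02, 9.09 and 8.96 in Col. The chromatin remodeller DDM1, which gives methyltransferases access to heterochromatin, had 8.09, 7.92 and 7.92 in epiRIL12, against 7.89, 8.16 and 7.83 in Col. In both genes the genotypes overlapped. CMT2, the methyltransferase of non-CG sites in long transposons, stood at 0.06 (SE 0.09), CMT3 at -0.00087 (SE 0.12) and MOM1, which silences transposons largely without a change in DNA methylation, at -0.01 (SE 0.11).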

How the data were processed

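The authors deposited log2 expression values, 1 per locus and array, for 3 epiRIL12 and 3 Col arrays; per the labels' protocols, RNA was freed of rRNA, random-primed, amplified and made into double-stranded cDNA, so strand is not kept and a locus and an antisense transcript cannot be told apart. For background correction, normalization and build, methods were not given in the sources used here. Besides, the authors' deposited table adds a log2 difference and an unadjusted p-value per named locus. The value table has no names and was joined to it by position: Pearson's r between both differences was 0.986 over the region's loci in place and 0.196 shifted by 1. Differences are epiRIL12 minus Col.

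R 4.3.3 and limma 3.58.1 fitted all 29670 loci (lmFit, eBayes, two-sided, genotype as the only factor, no filter). Benjamini-Hochberg adjustment ran over all loci, with a call at an adjusted p under 0.05. Errors are SDs of 3 arrays or limma's moderated standard errors. The script was tested on simulated data. The number of arrays limits the precision. The 767 matched loci of the region took classes and order from RefSeq's table (TAIR10.1).

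All called loci are named, with the 12 largest in full, the 5 largest uncalled, the 5 protein-coding loci of highest value, up to 4 members of each list, loci at the edges and next to the 6 largest rises, and 5 silencing genes. The region and lists were chosen with earlier results of these data known. Tables used Python 3.11.15 with pandas 2.3.3, and plots matplotlib 3.10.9.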

Additional observations from a re-analysis of the deposited data

How the results depend on the processing

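The number of rises in the region was 32, of 264 over all loci. It was 18 of 197 in a fit that blocks on replicate number. It was 14 of 92 among the upper 50% of loci by mean signal and 19 of 184 at an adjusted p under 0.01. By the p-values of the authors' deposited table after adjustment it was 9 of 123, with 8 of the 32 among these. With 1 array left out at a time it ran from 20 to 27 (197 to 220 over all loci). The number of falls then ran from 0 to 1 (10 to 19 over all loci). Leaving out both arrays numbered 3, an alternative chosen after seeing the data, gave 14 rises (141 over all loci). It gave 1 fall (AT4G03750). The count over all loci thus also changed with the setting. Under median centring, quantile normalization, a filter on the lowest 25% by signal, a trended robust eBayes and an adjusted p under 0.10 there were 32 to 37. Over all loci these alternatives gave 261 to 306. The filter on the lowest 25% gave 33, but it left only 30 of the 32 in the test. All 30 passed. This filter too uses the mean over arrays of both genotypes, and 7 of the 32 had a Col mean below the lower quartile. Its passes are no separate support. The filter to the upper 50% by signal left 14 of the 32 rises in the test, and all 14 passed. Its signal is the mean over epiRIL12 and Col arrays together, and 31 of the 32 rises had a Col mean below the median of all Col means. Most of the 14 thus stayed in through their epiRIL12 values. Fewer loci were also tested (14835 in place of 29670), so these passes are no separate support. Among the alternatives that recompute the difference (quantile normalization, median centring, the authors' deposited table and arrays left out), no difference of the 32 changed sign. With arrays left out it could not, since the genotypes overlapped at none of the 32, and median centring shifts all loci alike. The unchanged signs there are no separate support. The median difference of all 769 loci was 0.01 and ran from -0.02 to 0.04, below 0 under median centring (-0.01), among the upper 50% by signal (-0.02), and without Col replicate 3 or epiRIL12 replicate 1. Deviations of arrays from their genotype's mean had r over loci of -0.04, -0.07 and 0.13 for equal replicate numbers 1, 2 and 3. It was 0.11 for epiRIL12 replicate 1 with Col replicate 2, and 0.12 for epiRIL12 replicate 2 with Col replicate 1. Every other pair was below 0. The labels name no batch, and whether arrays of both genotypes were processed together was not tested. In the fit that blocks on replicate number, 17 of the 32 kept their call. No background level was given, so differences at loci near the array floor cannot be read as ratios of RNA.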
